A study of Homo sapiens with 27 samples.

Results

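The comparison described here set 501mel melanoma cells lacking both TFE3 and TFEB against 501mel cells lacking TFEB alone, both kept in full medium, and so asked what the further loss of TFE3 changed in cells that already had no TFEB. Its members were 6 of the 27 libraries of the study, 3 labelled TFE3 and TFEB double KO (DKO) and 3 labelled TFEB KO. They were chosen by genotype and treatment label, and no measured value entered the choice. 501mel is an established human melanoma line with high MITF. Both groups carry the TFEB knockout and have the treatment label 12h CTRL. The labels give DMEM with 10% fetal bovine serum as their medium, whereas the study's methods name RPMI for its human melanoma lines other than HBL. The other libraries used below are 3 of a TFE3 KO with the same label, 3 of unedited cells labelled Non-treated (WT), and 3 each of the DKO and the TFEB KO after 12 h with 250 nM Torin1, an inhibitor of the kinase mTOR. Knockouts were made with Cas9 ribonucleoprotein and isolated as clones, so each genotype is a single clone. What TFE3 loss changed therefore cannot be told apart from other differences between clones, and the sources used here do not give whether the DKO clone came from the TFEB KO clone. Polyadenylated RNA was sequenced from its 3′ end.

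TFE3, TFEB and MITF are related basic helix-loop-helix leucine zipper transcription factors that bind E-box sequences. In fed cells the kinase complex mTORC1 phosphorylates TFEB and TFE3 at the lysosome, which favours their retention in the cytoplasm. When nutrients fall, or when mTOR is inhibited, both enter the nucleus and activate genes of lysosomes, autophagy and metabolism, whereas MITF is the master regulator of melanocyte identity and pigmentation.

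The 2 guides that define the genotypes are shown with their sites because the label of each clone rests on them. Each line runs 5′ to 3′ on the strand the guide reads, with the 20-base guide and the 3-base PAM in capitals and the flanking genome in lower case.
TFE3 guide site: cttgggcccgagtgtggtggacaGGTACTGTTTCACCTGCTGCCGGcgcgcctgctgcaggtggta
TFEB guide site: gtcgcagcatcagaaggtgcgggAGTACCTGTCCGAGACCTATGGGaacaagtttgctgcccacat
The TFE3 guide matched hg38 chrX:49038370-49038389 on the plus strand, antisense to the gene, and Cas9 would cut it in coding sequence of exon 4 of the 10 exons of the canonical transcript TFE3-201 (GENCODE v44). The TFEB guide matched chr6:41690831-41690850 on the minus strand, which is the sense strand, in coding sequence of exon 3 of the 9 exons of transcript TFEB-204. Neither guide had a further perfect match in the main chromosomes of hg38.

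TFE3 RNA followed the labels. Its normalised value (reads times 1 factor per library) was 6.86, 5.93 and 6.26 in the DKO libraries and 31.4, 26.99 and 22.7 in the TFEB KO libraries. All DKO libraries lay below all TFEB KO libraries, and the log2 fold change was -1.92 (SE 0.17, adjusted p = 2.82e-12). Fold changes are DKO minus TFEB KO on the scale log2(value + 1), fitted with limma, which understates changes of genes with low values. Adjusted p is Benjamini-Hochberg over all tested genes, and a gene was called where adjusted p was under 0.05 and the log2 fold change was at least 1 in size. The TFE3 KO libraries held 7.59, 5.06 and 6.24, in the range of the DKO, and WT held 24.3, 23.8 and 24.0.

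TFEB RNA was too scarce to check the TFEB label between these groups. It stood at 0.156, 1.05 and 0.783 in the DKO and 0.911, 0.750 and 1.66 in the TFEB KO, where 3 reads are worth 0.467 to 0.683 (-0.36, SE 0.32, adjusted p = 0.455). The groups overlapped. In WT it was 3.45, 3.96 and 2.34. MITF stayed abundant, at 596, 538 and 532 in the DKO and 721, 685 and 734 in the TFEB KO. The groups did not overlap, but the difference of -0.36 (SE 0.06, adjusted p = 1.02e-05) was under the fold threshold.

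The libraries behaved as replicates. The 6 held 4162120 to 6395971 reads on genes, and every value came out as a whole number of reads. Log values correlated at 0.986 to 0.991 within each of the 2 groups and at 0.971 to 0.978 between them. The labelled cell type was borne out by its defining markers, MITF, SOX10, PMEL, MLANA, TYR, TYRP1 and DCT, all of them read in both groups, with summed values of 5123 to 5581 in the DKO and 5898 to 6248 in the TFEB KO. Of 10 fibroblast markers 5 were in the table, of 10 epithelial markers 3, and of 10 haematopoietic markers 1 (CD68). Genes on chromosome Y were set aside. Of the 12 that could be tested, 11 were called lower in the DKO than in the TFEB KO, and 11 were called lower in the TFE3 KO than in WT, so these genes moved with TFE3 loss in both backgrounds, and their part in the results below was not tested.

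Far more genes were lower than higher in the DKO. Of 13040 tested genes 394 (3.02%) were called, 341 of them lower in the DKO (2.62%) and 53 higher (0.406%). The falls were also deeper, since 42 genes fell by at least 2 on the log2 scale and 1 gene, BASP1, rose that much. In bulk RNA of this kind fewer cells that express a gene and less of its RNA per cell cannot be told apart. Across all tested genes the median difference was -0.00, and 4685 genes (35.9%) had no overlap between the 2 groups, so separation of the 6 libraries alone is common here. Among the called genes 390 of 394 had none.

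**Figure D1:**
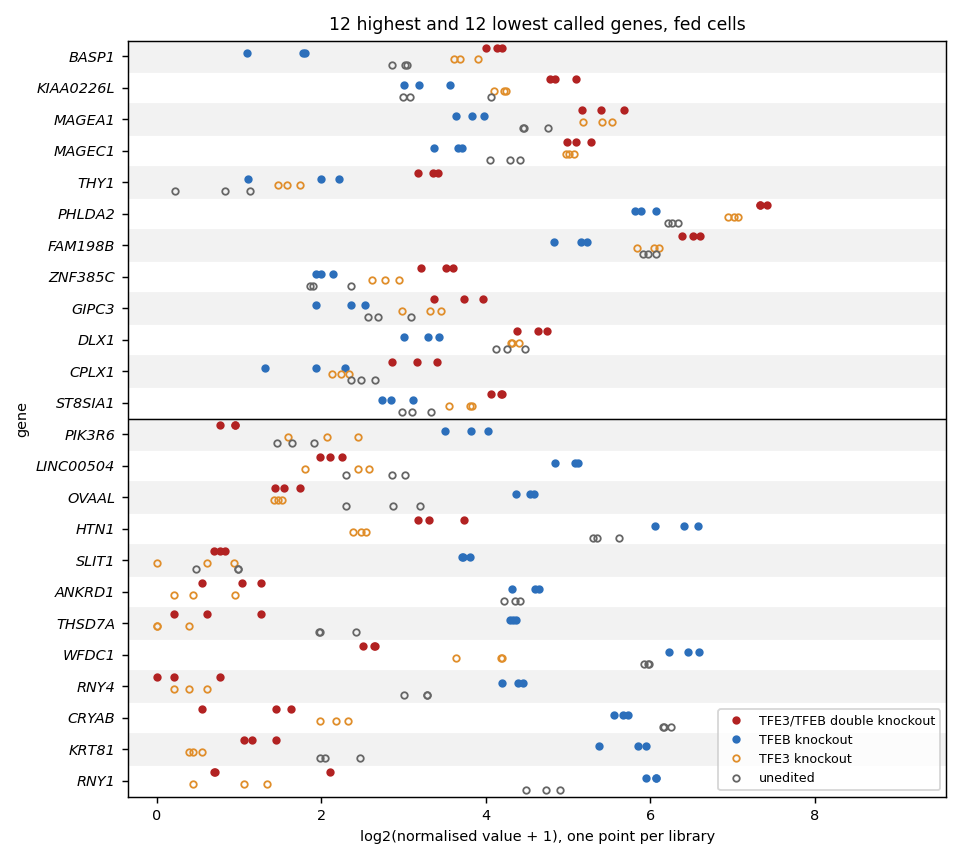
The 12 called genes with the highest and the 12 with the lowest log2 fold change (rows, split by the black line), with log2(normalised value + 1) of each library on the x axis and colour giving the genotype. Only genes with a mean of at least 5 and no overlap between double knockout and TFEB knockout were eligible, so these points lie apart in every row by choice. The largest gap is at RNY1 (log2 fold change -4.86).

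The deepest falls brought genes close to the value of a few reads. CRYAB, which encodes the small heat shock protein αB-crystallin, was at 0.467, 2.09 and 1.72 in the DKO and at 49.9, 52.1 and 46.3 in the TFEB KO. The groups were far apart, and CRYAB fell by 4.45 on the log2 scale (SE 0.17, adjusted p = 4.71e-26). KRT81, a hair keratin, was at 1.09, 1.22 and 1.72 against 60.8, 56.6 and 40.4, a difference of -4.50 (SE 0.28, adjusted p = 7.33e-18). Its paralog and neighbour KRT86, picked out after its values were seen, was also called (-2.51). Reads could be shared between such close copies. The same caution holds for the histatins HTN1 and HTN3, for SSX1, for the MAGEA genes and for HSPA1B.

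Genes for Y RNAs, small noncoding RNAs that RNA polymerase III makes and that bind the Ro60 protein, were among the largest falls. RNY1 stood at 0.623, 3.31 and 0.626 in the DKO and at 66.3, 66.3 and 60.8 in the TFEB KO (-4.86, SE 0.25, adjusted p = 3.77e-20). RNY4, at 0, 0.697 and 0.157 against 17.3, 20.1 and 20.9, differed by -4.02 (SE 0.26, adjusted p = 3.06e-17). These genes are neighbours, at hg38 chr7:148987136-148987248 for RNY1 and chr7:148963315-148963410 for RNY4. Looked up afterwards, RNY3 was called lower too (-2.27), while RNY5 was not called (-0.44, adjusted p = 0.293). Y RNAs carry no poly(A) tail of the kind this method primes on, so the reads report whatever part of them entered the libraries.

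The other deep falls were in genes of varied function. WFDC1, a secreted protease-inhibitor-like protein, was at 5.30, 5.23 and 4.70 in the DKO and 74.0, 86.6 and 95.3 in the TFEB KO (-3.82, SE 0.16, adjusted p = 2.07e-23). ANKRD1, a nuclear ankyrin-repeat protein that is a well-known target of YAP, was at 0.467, 1.05 and 1.41 against 23.2, 24.0 and 18.9 (-3.57, SE 0.21, adjusted p = 1.07e-18). Separation of the 2 groups was a condition for naming these genes. THSD7A, a membrane protein with thrombospondin repeats, differed by -3.64, the axon guidance ligand SLIT1 by -2.98, and the phosphoinositide 3-kinase regulatory subunit PIK3R6 by -2.89. HTN1, a salivary histatin gene, differed by -2.94, and the long noncoding RNAs OVAAL and LINC00504 by -2.92 and -2.90.

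Among the genes that rose, BASP1 stood apart. It encodes a membrane-bound protein that also acts as a transcriptional corepressor, and it was at 17.3, 14.99 and 16.6 in the DKO and at 1.138, 2.44 and 2.49 in the TFEB KO (2.55, SE 0.25, adjusted p = 4.85e-11). PHLDA2, an imprinted growth regulator, was the most abundant of the 12 highest at 160, 170 and 161 against 58.1, 66.2 and 55.4 (1.44, SE 0.13, adjusted p = 2.76e-12). No library of one group reached the other in either gene, which the choice of the 12 highest required. FAM198B rose by 1.43, the homeobox gene DLX1 by 1.34, KIAA0226L (RUBCNL, a regulator of autophagosome maturation) by 1.65, the synaptic protein gene CPLX1 by 1.30, and ST8SIA1, the ganglioside GD3 synthase, by 1.25. ZNF385C and GIPC3 each rose by 1.42.

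Cancer-testis antigens, germ cell proteins that melanomas often express, were called in both directions, 3 higher and 1 lower of 18 tested, against 0.406% and 2.62% of all tested genes. MAGEA1 was at 34.9, 41.3 and 50.2 in the DKO and at 13.2, 11.4 and 14.8 in the TFEB KO (1.602, SE 0.17). MAGEC1 (1.54) and PASD1 (1.26) rose with it, whereas SSX1 fell from 72.2, 69.0 and 53.5 in the TFEB KO to 7.63, 8.37 and 8.30 (-2.85, SE 0.21). The median of the list was 0.50. THY1, a cell surface glycoprotein counted here among fibroblast markers, was at 9.66, 8.02 and 9.23 against 3.64, 2.999 and 1.16 (1.54, SE 0.31). FAP, another of these markers, went the other way, at 1.71, 2.09 and 0.626 against 3.19, 4.31 and 3.48 (-0.96, adjusted p = 0.0147, not called). The 5 fibroblast markers in the table summed to 14.9 to 17.1 in the DKO and 7.63 to 12.2 in the TFEB KO, with COL1A2, COL3A1, DCN, PDGFRB and POSTN not in the table. Of the 2 tested epithelial markers KRT18 (1.21) was called higher and ESRP1 was at -0.35 (adjusted p = 0.0236, not called). The epithelial sums were 34.0 to 38.8 and 30.8 to 37.7. What other cells or cell states contributed to these values was not tested.

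**Figure D2:**
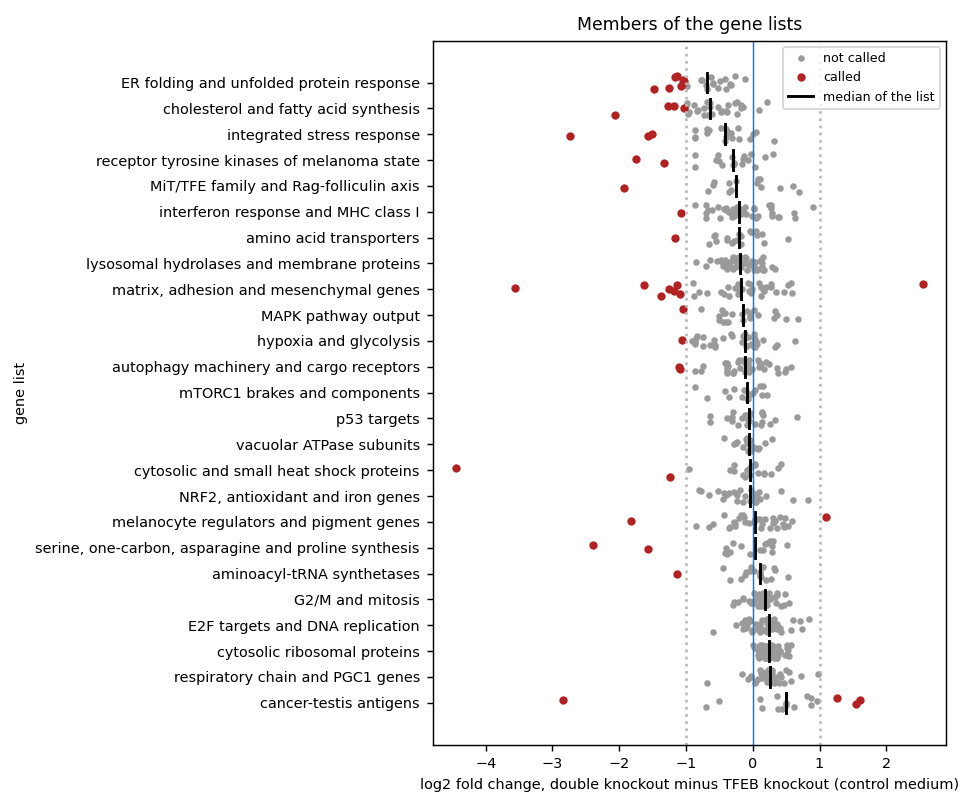
Log2 fold change of each tested member (x axis, DKO minus TFEB KO) in 25 gene lists ordered by their median (black bar), with called members in red and dotted lines at the fold threshold. The lists for ER folding and for cholesterol and fatty acid synthesis lie furthest left, at medians of -0.69 and -0.64, and no member of the ribosomal protein list lies left of 0.

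The list of ER folding and unfolded protein response genes fell most uniformly. All 24 tested members had negative signs, 8 were called lower and none higher, where 2.62% of all tested genes were called lower, and the median was -0.69 against -0.00 over all tested genes. HSPA5, the ER chaperone BiP, was at 787, 778 and 675 in the DKO and at 2337, 2156 and 1809 in the TFEB KO, with no overlap (-1.49, SE 0.08, adjusted p = 3.9e-20). HYOU1, a large ER chaperone, was at 92.7, 89.2 and 77.5 against 229, 200 and 195 (-1.26, SE 0.10), and CRELD2, a secreted ER stress protein, was at 102, 95.5 and 96.7 against 219, 245 and 203 (-1.17, SE 0.10). The chaperone cofactor DNAJB11 differed by -1.13, and the other called members were SEL1L (-1.08), MANF (-1.05), HSP90B1 (-1.04) and DNAJC3 (-1.03), which serve ER-associated degradation, ER stress survival and folding. The sensor gene ATF6 (-0.59) and XBP1 (-0.42), which encode transcription factors of the response, passed the adjusted p but not the fold.

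The ER stress element, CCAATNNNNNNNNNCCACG, is the sequence through which ATF6 and XBP1 are known to act, and it is shown here because several ER chaperone genes are known to carry it. It was searched on both strands in the RefSeq promoters (GRCh38.p14, 250 bases before to 50 after the start site) of the 10228 tested genes that have one. It was present in 14 of them (0.137%), in 4 of 250 genes called lower (1.6%) and in none of 31 called higher. Of the 14 genes 13 had a negative sign and 9 passed the adjusted p as lower, none as higher, with a median of -0.40. Of these 14 genes 6 belong to the ER list above (HSPA5, HSP90B1, CRELD2, XBP1, CALR and CANX). These shares and signs therefore partly restate that list and are no separate result. The 4 called were HSPA5, CRELD2, FICD (-1.07), which adds and removes AMP on BiP, and HSP90B1. Their promoters follow 5′ to 3′ on the gene's strand with the element in capitals.
HSPA5 promoter: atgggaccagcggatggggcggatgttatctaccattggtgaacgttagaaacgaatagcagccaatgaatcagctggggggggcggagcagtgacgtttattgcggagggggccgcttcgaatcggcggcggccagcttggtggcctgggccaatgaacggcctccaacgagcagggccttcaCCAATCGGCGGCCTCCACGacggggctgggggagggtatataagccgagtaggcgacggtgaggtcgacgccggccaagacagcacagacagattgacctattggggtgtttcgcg
CRELD2 promoter: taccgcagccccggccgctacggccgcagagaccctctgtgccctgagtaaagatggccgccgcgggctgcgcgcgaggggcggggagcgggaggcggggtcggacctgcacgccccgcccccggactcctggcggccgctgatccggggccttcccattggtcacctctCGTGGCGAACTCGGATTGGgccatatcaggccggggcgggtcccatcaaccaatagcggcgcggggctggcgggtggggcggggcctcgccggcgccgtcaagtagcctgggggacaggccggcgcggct
FICD promoter: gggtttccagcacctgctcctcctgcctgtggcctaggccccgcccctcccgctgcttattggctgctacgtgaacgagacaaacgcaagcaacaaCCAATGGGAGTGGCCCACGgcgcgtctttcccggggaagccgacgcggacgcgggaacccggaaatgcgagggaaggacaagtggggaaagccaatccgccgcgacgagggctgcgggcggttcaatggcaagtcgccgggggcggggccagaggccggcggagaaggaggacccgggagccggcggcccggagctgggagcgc
HSP90B1 promoter: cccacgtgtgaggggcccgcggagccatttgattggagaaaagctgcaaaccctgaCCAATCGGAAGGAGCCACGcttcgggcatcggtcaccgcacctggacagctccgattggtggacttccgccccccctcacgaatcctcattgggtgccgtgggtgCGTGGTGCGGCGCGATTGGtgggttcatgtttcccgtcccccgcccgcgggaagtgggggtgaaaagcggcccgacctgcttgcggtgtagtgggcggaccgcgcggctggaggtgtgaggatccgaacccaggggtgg
These windows are chr9:125241294-125241593 (minus strand), chr22:49918384-49918683 (plus), chr12:108515027-108515326 (plus) and chr12:103930160-103930459 (plus). The element began 66, 80 and 154 bases before the start site in HSPA5, CRELD2 and FICD, and HSP90B1 held it at 2 places. In CRELD2, and at the later of the 2 places in HSP90B1, the capitals show its reverse complement. A match in letters is a description and not evidence that a factor binds there.

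E-boxes, the sequence family that TFE3 and TFEB bind, were counted in the same promoters and on both strands. The core CACGTG was present in 22 of the 250 promoters found for genes called lower (8.8%) and in 10.4% of all 10228 promoters. The 8-base form TCACGTGA, which contains the core, was in 2 of 250 (0.8%) and in 1.98% of all. In the lysosomal list, 10 of 32 promoters (31.2%) held the core, and no member of that list was called. A sterol element, TCACNCCAC, was counted in the same way. It was in 1 of the 250 promoters of genes called lower (0.4%) and in 1.07% of all. In the cholesterol and fatty acid list 1 of 25 promoters held it, that of SREBF2, which was not called.

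The list of cholesterol and fatty acid synthesis had the second lowest median. Of 32 members 30 had negative signs, 4 were called lower and none higher, where 2.62% of all tested genes were called lower, and the median was -0.64. HMGCS1, the synthase at the head of the mevalonate pathway, was at 166, 157 and 160 in the DKO and at 749, 693 and 589 in the TFEB KO (-2.06, SE 0.08, adjusted p = 1.38e-26). STARD4, a sterol carrier, was at 4.21, 5.58 and 4.23 against 11.2, 14.1 and 12.6 (-1.27, SE 0.26). The groups were separate for both genes. SREBF2, which encodes the main transcription factor of sterol synthesis, was at -0.67, and SREBF1, its relative for fatty acid synthesis, was at 0.09 with adjusted p = 0.764.

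In the list of the integrated stress response, through which ATF4 raises amino acid supply and translation control genes, 3 of 22 members were called lower, none higher, with a median of -0.41. Over all tested genes 2.62% were called lower. NUPR1, a small stress-response chromatin protein, was at 0.623, 1.05 and 0.783 in the DKO and at 12.3, 11.1 and 9.95 in the TFEB KO (-2.74, SE 0.25, adjusted p = 2.24e-12). ASNS, asparagine synthetase, was at 24.0, 16.9 and 20.5 against 64.9, 61.8 and 59.7 (-1.57, SE 0.14, adjusted p = 2.39e-12), and KLHL24, a ubiquitin ligase adaptor, differed by -1.51 (SE 0.12). ATF4 RNA itself was not lower, at 0.32 above the TFEB KO. PSAT1, an enzyme of serine synthesis, was at 0.156, 0 and 0.313 in the DKO, under the value of 3 reads, against 4.10, 7.31 and 4.14. It and ASNS were the 2 called of 18 members of the amino acid synthesis list, whose median was 0.04. The large neutral amino acid transporter SLC7A5 fell from 495, 472 and 399 to 180, 211 and 217 (-1.16, SE 0.09) and the tryptophanyl-tRNA synthetase WARS by 1.139, each the single called member of its list of 21 and 20. A single call in lists of this size does not set them apart from the 2.62% of all tested genes.

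Lysosomal genes, the best known targets of TFEB and TFE3, stayed within the fold threshold. None of 50 members was called in either direction, although 36 had negative signs, 11 passed the adjusted p as lower and 1 as higher, and the median was -0.19. Over all tested genes 13.6% passed the adjusted p as lower and 11.8% as higher. The cholesterol transporter NPC1 (-0.85) and the sialic acid exporter SLC17A5 (-0.70) were furthest from 0. None of 20 vacuolar ATPase subunits, which acidify the lysosome, was called (median -0.05). Of 39 autophagy genes, 2 were called lower, GABARAPL1, an ATG8 family member, from 49.0, 39.9 and 36.6 to 19.5, 16.0 and 21.4 (-1.10, SE 0.14), and the mitophagy receptor OPTN, from 33.7, 33.2 and 35.8 to 14.5, 13.6 and 18.8 (-1.10, SE 0.12). Of all tested genes 2.62% were called lower. GABARAPL1 fell short of the fold threshold without DKO replicate 2 (-0.99) or TFEB KO replicate 1 (-0.98). In the list of the MiT/TFE family and the Rag-folliculin axis TFE3 was the called member of 15, with RRAGC and RRAGD, small GTPases that bring mTORC1 to lysosomes, at -0.67 and -0.59, both past the adjusted p. LAMTOR2, a subunit of the Ragulator complex that anchors the Rag GTPases, lay the other way, at 48.1, 65.9 and 59.6 in the DKO and 31.4, 39.4 and 35.3 in the TFEB KO (0.69, adjusted p = 1.45e-05, under the fold threshold). Of the 15 members 6 passed the adjusted p as lower and 2 as higher.

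Growth and matrix lists moved in different ways. Of 40 matrix, adhesion and mesenchymal genes 7 were called lower and 1 higher (median -0.18), against 2.62% and 0.406% of all tested genes. Besides ANKRD1, the matricellular gene CYR61 was at 7.63, 9.94 and 12.1 against 28.5, 35.6 and 32.5 (-1.62, SE 0.14), and fibronectin (FN1) at 46.4, 42.4 and 27.5 against 112, 94.6 and 92.3 (-1.37, SE 0.19). Also called lower were CTGF (-1.19), TGFBI (-1.14) and ITGA3 (-1.08), and BASP1 is the one called higher. Of the melanocyte list S100B rose, from 31.6, 33.7 and 32.8 to 72.0, 71.1 and 69.5 (1.09, SE 0.10), and the BCL2 relative BCL2A1 was called lower, at 0, 0 and 0.470 against 2.50, 4.69 and 2.32. Of the pigment enzymes DCT was at -0.65 and TYR at 0.41, neither called, and the median of the 35 was 0.03. Receptor tyrosine kinases had 2 called lower of 20, the insulin receptor INSR (-1.32) and the collagen receptor DDR2. Among heat shock genes HSPA1B (-1.24) fell with CRYAB, 2 of 20. One member each was called lower of 36 hypoxia and glycolysis genes (P4HA2), 24 of MAPK output (JUN) and 44 of interferon and MHC class I (HLA-B), shares near the 2.62% of all tested genes. P4HA2 missed the fold threshold without DKO replicate 2 or 3, JUN without DKO replicate 1 or TFEB KO replicate 1, and HLA-B without TFEB KO replicate 2 or 3. The log2 fold changes nearest to 0 among these were -0.97 for P4HA2, -0.92 for JUN and -0.92 for HLA-B.

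Small shifts ran through the translation and respiration lists without a call. None of 79 cytosolic ribosomal protein genes was called, yet all had positive signs, 54 passed the adjusted p as higher, and the median was 0.25. The TFEB KO was the low group, with summed values of 121085 to 127780 against 142363 to 157965 in the DKO. WT held 138063 to 162277 and the TFE3 KO 150087 to 161799. In the TFE3 KO against WT the median was 0.06, with 8 past the adjusted p as higher and 3 as lower. The 47 respiratory chain and PGC1 genes had the same median, 0.25, with 26 past the adjusted p as higher. The TFEB KO was again lowest, with sums of 9977.22 to 10676.5 against 11689 to 13097 in the DKO. WT held 11158 to 13109 and the TFE3 KO 11540 to 12166, and the median between them was 0.02. E2F targets (median 0.24, 50 genes) and mitotic genes (0.18, 39 genes) held no called member. None was called either for mTORC1 brakes, NRF2 and iron genes, or p53 targets, whose medians were -0.08, -0.04 and -0.06.

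**Figure D3:**
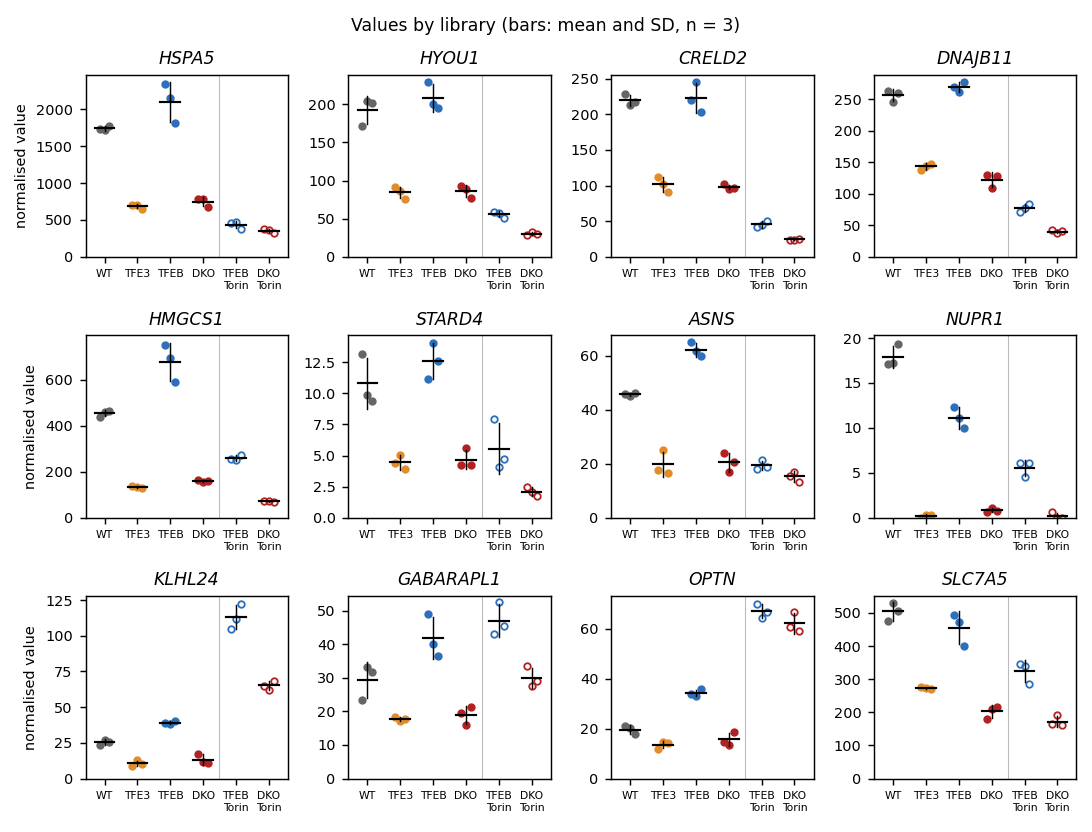
Normalised values (y axis) of 12 genes of the ER, sterol, amino acid stress and autophagy lists in each library, with bars for the mean and SD of 3 libraries, and Torin1-treated groups right of the grey line. In fed cells both clones without TFE3 lie below both others in each gene but OPTN, as for HSPA5 at 655 to 787 against 1713 to 2337 in both others. For OPTN the TFEB KO is the high group, and the DKO (up to 18.8) overlaps WT (down to 17.8).

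The same question could be put to cells not edited at TFEB, since the TFE3 KO and WT libraries share no library with the 6 above. TFEB RNA was not alike in them, at 0.177, 0.307 and 1.56 in the TFE3 KO and 3.45, 3.96 and 2.34 in WT. That puts the TFE3 KO near the TFEB KO, at 0.911, 0.750 and 1.66. The study also reports a moderate fall of TFEB protein in its TFE3 KO cells. Below, with TFEB means only that TFEB was not edited. There 187 genes (1.43%) were called, 162 lower (1.24%) and 25 higher (0.192%). Of the 394 genes called in TFEB-null cells 103 were called in the same direction in the TFE3 KO against WT (26.1% of the 394 and 55.1% of the 187) and 1 in the opposite one. Among the 341 that fell, 304 (89.1%) had a negative sign, against 49.7% of all tested genes, with a median of -0.63 against -1.25 in TFEB-null cells. The 341 were selected by their fall in TFEB-null cells, so these 2 medians do not measure which background had the larger effect. Among the 53 that rose, 41 were positive. Fold changes of the 2 comparisons correlated at 0.52 across 13040 genes, which are not independent of each other.

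Several of the leading genes gave like values in both backgrounds. CRYAB went from 70.2, 70.9 and 74.9 in WT to 3.53, 3.99 and 2.96 in the TFE3 KO, a difference of -4.03, and ANKRD1 from 19.4, 17.6 and 20.3 to 0.353, 0.153 and 0.936 (-3.80). HMGCS1 (-1.74), HSPA5 (-1.34), HYOU1 (-1.18), CRELD2 (-1.10), ASNS (-1.20), KLHL24 (-1.19) and HTN1 (-2.96) were called there too. Of the ER list 6 of 24 members were called lower (median -0.78), and of the cholesterol list 5 of 32 (median -0.58). For HSPA5 the 2 changes differed by -0.15 (SE 0.11, adjusted p = 0.539) and for HMGCS1 by -0.32 (SE 0.11, adjusted p = 0.0896), which does not show that they were equal.

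For other genes the change differed between the 2 backgrounds. Background here cannot be told apart from the treatment label of WT or from clone. The test of the difference between backgrounds called 120 genes (0.92%), of which 71 were among the 394, and in 58 of these the fitted fall was deeper without TFEB. That test contains the contrast that called the 394. Both the overlap and its direction are therefore favoured by the choice of genes and are given as a description. PIK3R6 was at 2.14, 2.77 and 1.76 in WT and 3.18, 4.45 and 2.03 in the TFE3 KO, so the TFEB KO stood above every other fed group (difference -3.25, SE 0.37, adjusted p = 6.62e-08). In KRT81 too the TFEB KO stood above every other fed group, but the TFE3 KO was below WT. KRT81 was at 2.96, 4.55 and 3.12 in WT and 0.353, 0.460 and 0.312 in the TFE3 KO (difference -2.79, SE 0.39, adjusted p = 4.17e-06). The TFE3 KO lay there under the value of 3 reads, so KRT81 was at least 7.29-fold lower than in WT and the size of the difference is not fixed. SLIT1 (-2.68), LINC00504 (-2.45) and SSX1 (-2.35) also had WT far below the TFEB KO. SEPT11, a septin, was at 16.6, 19.0 and 22.8 in WT and at 3.87, 4.12 and 4.14 in the TFEB KO already, before 0, 0.523 and 0.157 in the DKO. Both clones without TFE3 lay at or under the value of 3 reads, so the falls were at least 40.1-fold with TFEB and at least 8.31-fold without it, and which was deeper cannot be read. The same limit holds for PSAT1 in the DKO. NUPR1 was at 17.1, 17.2 and 19.3 in WT and at 0, 0.307 and 0.312 in the TFE3 KO, at least 36.8-fold lower (difference 1.24, SE 0.35). PASD1 changed in opposite directions, 1.26 without TFEB and -1.34 with it (difference 2.605, SE 0.41, adjusted p = 3.75e-05).

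**Figure D4:**
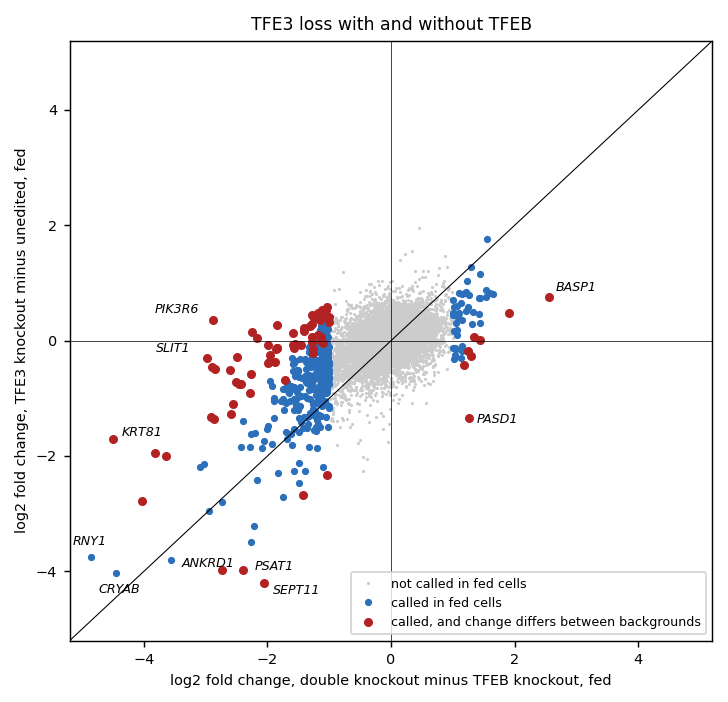
Log2 fold change of each tested gene with TFE3 loss in TFEB-null cells (x axis) and in cells not edited at TFEB (y axis, TFE3 KO minus WT), with genes called in TFEB-null cells in blue and, in red, the 71 of them whose 2 changes differed. Most called genes lie left of 0 and below it, and many red points lie near 0 on the y axis, such as PIK3R6 at 0.36.

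Placing the 394 genes over the 4 fed genotypes showed which clone stood apart. In 167 of the 341 lower genes every library of both TFE3-null clones was below every library of the TFEB KO and WT, an order found in 4.83% of all tested genes. In 196 of the 341 every TFEB KO library was above all others (7.21% of all genes), and 69 genes met both. In 44 every DKO library lay below all other libraries (2.67% of all). This can hold for genes of the other groups too, as for WFDC1, which met all 3 orders. Of the 341, 33 met none of the 3. Of the 53 higher genes, 24 were above in both TFE3-null clones, 20 were lowest in the TFEB KO and 21 were highest in the DKO, with 11 in the first 2 groups at once. Genes highest in the DKO could belong to those groups too, and 9 of the 53 met none of the 3 orders. These orders used the values that called the genes in 2 of the 4 groups and are given as a description.

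Under Torin1, in libraries not used above but from the same clones, 486 genes (3.73%) were called between DKO and TFEB KO, 383 lower (2.94%) and 103 higher (0.79%). Of the 394 genes called in fed cells 192 were called again in the same direction and none in the opposite one, which is 48.7% of the 394 and 39.5% of the 486. Negative signs were kept by 324 of the 341 lower genes (95.0%, against 47.7% of all) and positive signs by 48 of the 53 higher ones. RNY1 (-4.45), KRT81 (-4.06) and ANKRD1 (-3.92) were lowest there. ANKRD1 was at 7.08, 7.396 and 10.2 in the DKO and 111, 161 and 146 in the TFEB KO, both above their fed levels.

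For HSPA5 the gap between the groups narrowed with Torin1. It was at 374, 365 and 327 in the DKO and at 460, 470 and 377 in the TFEB KO under Torin1, all 6 below every fed library of either group, and the difference was -0.29 and was not called. The change in the gap, 1.198 (SE 0.11, adjusted p = 4.02e-10), was called. HSPA5 was the 1 called of the 24 ER genes for such a change (median 0.30), and none of the 24 was called between the groups with Torin1 (median -0.39). Of the 32 cholesterol and fatty acid genes 8 were called lower with Torin1 (median -0.40), among them HMGCS1 (-1.85) and STARD4 (-1.04), and 1 had a called change in its gap. In all, 116 genes (0.89%) differed in their gap between Torin1 and control, 25 of them among the 394. This contrast too contains the one that called the 394, so a narrower gap in such genes is favoured by their choice. ASNS went from 64.9, 61.8 and 59.7 in the fed TFEB KO to 17.9, 21.2 and 18.9 with Torin1, near the DKO at 15.5, 17.1 and 13.2 (change in gap 1.24, SE 0.20). JUN (1.32), CYR61 (1.30), HSPA1B (1.12) and the giant scaffold gene AHNAK (1.88) likewise lost a fed gap. PHLDA2, higher in the fed DKO, was at 18.8, 25.2 and 20.3 against 18.6, 17.9 and 13.0 with Torin1 (change in gap -1.08, SE 0.18). The cell cycle gene E2F2 came apart with Torin1, at 5.54, 3.41 and 3.15 in the DKO against 15.7, 16.6 and 10.4 in the TFEB KO, after -0.17 in fed cells (change in gap -1.44, SE 0.25).

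**Figure D5:**
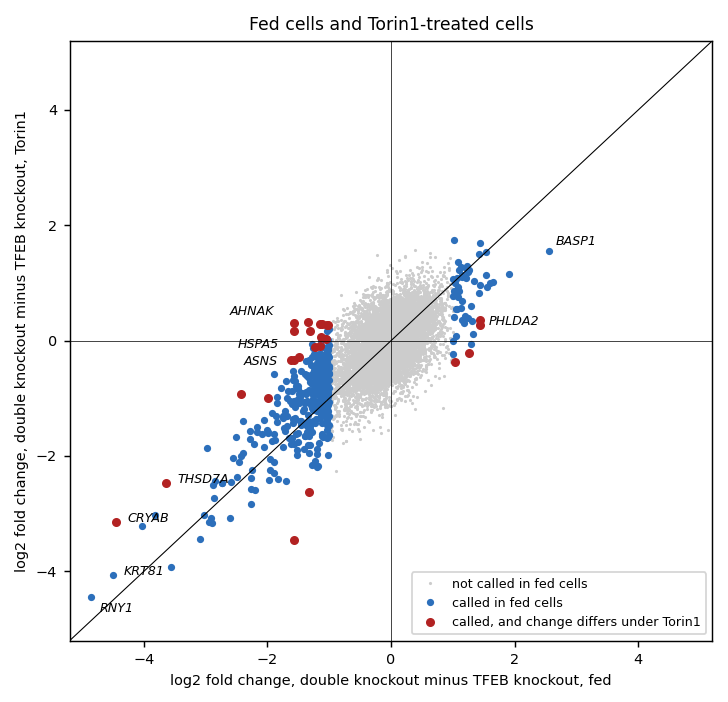
Log2 fold change between DKO and TFEB KO of each tested gene in fed cells (x axis) and with Torin1 (y axis), with genes called in fed cells in blue and, in red, the 25 of them whose gap differed between the conditions. RNY1 and KRT81 lie near the diagonal, while HSPA5, ASNS and AHNAK lie near 0 on the y axis, at -0.29, -0.33 and 0.31.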

How the data were processed

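The data were 27 libraries of 3′ end RNA-seq (QuantSeq Forward) in 9 groups of 3. Per the labels and the study's methods, the authors trimmed reads (trim_galore with cutadapt 2.10), checked them (FastQC 0.11.9), aligned them to hg38 with STAR 2.7.8a and normalised with edgeR. The counter, the gene filter and the scaling are not given in the sources used here. The deposited values are a normalised signal per gene. In each column 100% of values were whole multiples of 1 step (tolerance 0.001 reads), which gave 4147050 to 6526392 reads per library. With 3 reads worth 0.460 to 0.711, differences below that are not detectable at this depth, and these limits cover counting error only.

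The columns of WT HBSS replicate 3 and of the first WT Torin replicate held the same value in every one of the 13523 genes. Both were left out, so 25 libraries entered the fit. No comparison here uses those groups.

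A gene was tested where 3 or more libraries reached a value of 1 (13052, with 12 on chromosome Y). The values were tested as log2(value + 1) with limma 3.58.1 (R 4.3.3; trend and robust settings) over all 9 groups, with no covariate, and p-values were adjusted over all tested genes. The differences between backgrounds and between Torin1 and control are contrasts of the same fit. Whether replicates were separate cultures is not given, so p-values measure the spread between these libraries. Alternatives were another pseudocount, other filters, rescaling, subsets of libraries, edgeR 4.0.16 and DESeq2 1.42.0 on the recovered reads, a replicate block, and leaving out each replicate.

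Genes were placed by symbol on GENCODE v44 (12306) or RefSeq (132 by symbol, 782 by synonym), and 303 were not placed. Named genes are TFE3, TFEB and MITF, the 12 highest and 12 lowest called with a mean of at least 5 and no overlap between groups, up to 4 called members of each list (2 of largest size where fewer than 2 are called), and 3 at each end of the other comparisons. Some genes that meet this rule are not reported here. Genes named beyond this rule were chosen after their values were seen. Members and lists were chosen with earlier results of these data known.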

Additional observations from a re-analysis of the deposited data

Results flagged for a closer look

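For 21 named genes the change with TFE3 loss differed between TFEB-null cells and cells not edited at TFEB, by the test of the difference itself in limma (DKO minus TFEB KO, minus TFE3 KO minus WT, log2 scale). TFEB RNA was itself lower in the TFE3 KO than in WT, and WT alone is labelled Non-treated. The difference of the 2 changes was negative for PIK3R6 (-3.25), KRT81 (-2.79), SLIT1 (-2.68), LINC00504 (-2.45), SSX1 (-2.35), HTN3 (-2.11), WFDC1 (-1.87), KRT86 (-1.80), THSD7A (-1.64), OVAAL (-1.60), RNASE1 (-1.501), ENC1 (-1.26) and RNY4 (-1.24). It was positive for PASD1 (2.605), SEPT11 (2.14), BASP1 (1.79), PSAT1 (1.59), CPLX1 (1.56), FAM198B (1.42), DLX1 (1.28) and NUPR1 (1.24). These are differences of changes and not levels. For KRT81, KRT86, HTN3, RNY4, THSD7A, NUPR1, PSAT1 and SEPT11 a clone without TFE3 lay under the value of 3 reads, so the size of the difference depends on the pseudocount.

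RNASE1, a secreted ribonuclease, was one of these without being called in TFEB-null cells. It was at 57.9, 49.996 and 46.3 in the TFE3 KO, at 17.4, 10.5 and 10.7 in WT, at 79.3, 72.7 and 78.1 in the DKO and at 56.7, 56.0 and 55.4 in the TFEB KO, so WT was the low group. WT is also the group with its own treatment label.

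For 15 named genes the gap between DKO and TFEB KO differed between Torin1 and control by the same kind of test. It was higher with Torin1 for AHNAK (1.88), SAMD5 (1.74), FBXO2 (1.66), JUN (1.32), CYR61 (1.30), CRYAB (1.29), ASNS (1.24), HSPA5 (1.198), THSD7A (1.17) and HSPA1B (1.12). It was lower for E2F8 (-2.01), FAM111B (-1.57), AP1S3 (-1.501), E2F2 (-1.44) and PHLDA2 (-1.08). E2F8, FAM111B and E2F2 are cell cycle genes, and of the 50 E2F targets and DNA replication genes 8 were called lower in the DKO under Torin1 (median -0.43), against 2.94% of all tested genes. In fed cells none was called, 16 passed the adjusted p as higher and 1 as lower (median 0.24).

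Groups of 3 libraries were not searched for outlying samples. The causes of these differences were not tested.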

How the results depend on the processing

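The count of 394 genes rose to 600 with edgeR on the recovered reads (498 lower, 102 higher). With a pseudocount of 0.1 the 187 genes of the TFE3 KO against WT became 285. With all 27 columns kept under their labels, the 120 genes that differed between backgrounds became 49 and the 116 that differed between Torin1 and control became 32, a fit in which 1 library stands in 2 groups. Leaving out 1 replicate at a time gave 400 to 449 genes for the DKO against the TFEB KO, 181 to 201 for the TFE3 KO against WT, 89 to 126 for the difference between backgrounds, 490 to 527 under Torin1, 91 to 140 for the difference between Torin1 and control, and 43 to 51 members of all lists (44 with every library). Other alternatives stayed within 1.5 times of each count. The numbers did not pair the libraries (correlations of deviations 0.034, -0.003 and 0.0998), and with a replicate block 392 genes were called. Of 103 named genes 85 kept their direction and side of the threshold under all 15 alternatives, and of the 63 called 56 did. Signs turned for 3 uncalled genes, AP1S3 (-0.14 to 0.039 over the fits that leave out 1 replicate), ENC1 (-0.016 to 0.30) and APC2 (-0.027 to 0.998), the first 2 without TFEB KO replicate 1 and APC2 without DKO replicate 2. Rescaling by median of ratios moved the median of all genes by 0.01.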

Other observations

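TFEB RNA was lower in the TFE3 KO than in WT, at 0.177, 0.307 and 1.56 against 3.45, 3.96 and 2.34 (-1.41, adjusted p = 0.00185 by limma), although the TFE3 KO was not edited at TFEB. SESN2, a sensor that restrains mTORC1, was called lower there (-1.09) and stood at -0.87 in TFEB-null cells. Among the genes higher in the DKO under Torin1, MAP2, which encodes a microtubule-associated protein, was at 66.5, 65.4 and 60.2 in the DKO and 16.2, 21.0 and 17.9 in the TFEB KO (1.75), with LGI4 at 1.69, APC2 at 1.57 and BASP1 at 1.56.

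Medians by chromosome, over genes with a mean of at least 5, put chromosome 13 highest for DKO minus TFEB KO, at 0.23 for 189 genes in fed cells and 0.15 with Torin1. The other chromosomes lay between -0.11 and 0.10 in fed cells. Against WT, which both comparisons share, chromosome 13 was at -0.18 in the TFEB KO and 0.05 in the DKO, and chromosome 6, where TFEB lies, was at -0.17 and -0.23 (493 genes). In the TFE3 KO against WT chromosome 8 was lowest at -0.27 (336 genes). What lies behind these shifts was not tested.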
